A study of Mus musculus with 35 samples.

Results

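Small nucleolar RNA host genes are genes whose introns carry small nucleolar RNAs (snoRNAs). The 7 described here, Gas5, Snhg1, Snhg3, Snhg6, Snhg8, Snhg11 and Snhg12, were taken by name from the 55401 genes in the count table, and all 7 were among the 17612 genes that passed the filter on low counts. Each was counted at 128 fragments or more in every mouse of the main set.

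CD45+ cells, here called microglia, were isolated from the whole brain of wild-type C57BL/6 mice of both sexes at postnatal day 6 (P6), P15 and 8 weeks, and each mouse gave 1 mRNA library. Immunopanning was used, in which dissociated brain cells settle on a dish coated with an antibody to CD45 and unbound cells are rinsed off. No mouse carried a transgene or a treatment, so age and sex are the only labelled differences. The main set holds 34 mice, with 4 females and 6 males at P6, 6 of each sex at P15 and 6 of each sex at 8 weeks. A further mouse, P6 female 6, was set aside here and is given separately. The paper left out 1 mouse as an outlier, and its text does not name that mouse.

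A snoRNA is released when the intron that holds it is spliced out and trimmed. Box C/D snoRNAs guide the 2′-O-methylation of ribosomal RNA and box H/ACA snoRNAs guide its pseudouridylation, so that their hosts sit close to ribosome production, while the spliced host RNA often has little coding potential and is commonly degraded by nonsense-mediated decay. Many hosts start with a run of pyrimidines, a feature called 5′TOP that they share with ribosomal protein genes. Gas5 was named for its accumulation in growth-arrested cells and can bind the glucocorticoid receptor, and Snhg11 is best known from neurons.

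The GENCODE M21 annotation on GRCm38/mm10 places 29 snoRNA genes inside the 7 hosts on the same strand. Gas5 has 10 of them at 9 separate positions, Snhg1 has 8, Snhg12 has 5 at 4 positions, Snhg3 and Snhg11 have 2 each, and Snhg6 and Snhg8 have 1 each. On the transcribed strand, 16 of the 29 hold the C box letters TGATGA and the D box letters CTGA in the last 20 bases, 8 have ACA in the last 8 bases and are longer than 100 bases, and 5 hold neither pattern. By the same search, 23% of all 1558 annotated snoRNA genes hold the C and D letters and 44% the ACA letters. By these letters and names, Gas5, Snhg1 and Snhg6 host box C/D snoRNAs, Snhg3, Snhg8 and Snhg11 host box H/ACA snoRNAs, and Snhg12 hosts both kinds. The first lettered snoRNA of each host is printed here in DNA letters, since it is the part of the gene that gives the family its name, with the C and D boxes or the ACA in capitals.
Gm26224 in Gas5, chr1:161035394-161035473, + strand: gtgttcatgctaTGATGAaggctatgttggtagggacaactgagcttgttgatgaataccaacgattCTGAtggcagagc
Gm25855 in Snhg1, chr19:8723993-8724064, + strand: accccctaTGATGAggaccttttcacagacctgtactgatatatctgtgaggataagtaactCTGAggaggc
Snord87 in Snhg6, chr1:9942463-9942549, - strand: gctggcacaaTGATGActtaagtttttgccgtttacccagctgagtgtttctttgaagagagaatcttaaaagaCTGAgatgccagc
Snora73a in Snhg3, chr4:132352775-132352979, - strand: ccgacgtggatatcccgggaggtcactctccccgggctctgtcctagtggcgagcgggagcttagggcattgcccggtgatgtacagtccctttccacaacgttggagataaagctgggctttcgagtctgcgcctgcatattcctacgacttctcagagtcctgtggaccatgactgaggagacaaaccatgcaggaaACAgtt
Snora24 in Snhg8, chr3:123507937-123508066, - strand: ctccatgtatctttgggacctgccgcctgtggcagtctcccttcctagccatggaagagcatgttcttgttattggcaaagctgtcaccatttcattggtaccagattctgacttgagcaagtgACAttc
Gm25187 in Snhg11, chr2:158378222-158378354, + strand: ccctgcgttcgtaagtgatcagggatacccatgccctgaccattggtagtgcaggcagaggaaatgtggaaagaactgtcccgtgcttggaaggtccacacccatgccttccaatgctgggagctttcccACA
Snora16a in Snhg12, chr4:132309464-132309600, + strand: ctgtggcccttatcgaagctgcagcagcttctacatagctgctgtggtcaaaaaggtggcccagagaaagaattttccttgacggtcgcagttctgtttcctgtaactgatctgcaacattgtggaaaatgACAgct

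The snoRNA rows themselves were nearly empty, and whether a row held any count followed its place in the annotation. The 25 rows that lie wholly within an annotated exon of their host were at 0 in all 35 mice, and the 4 rows with bases outside every host exon all held counts. Taken over all annotated transcripts, the exons of Snhg1, Snhg8 and Snhg12 cover the whole span, those of Gas5 91.3% of it and those of Snhg11 81.1%. Retained-intron forms are among the transcripts of Gas5, Snhg1, Snhg8 and Snhg11, and none is annotated for Snhg12. By default featureCounts leaves out a fragment that overlaps 2 genes. The counting flags in the methods set strand, read pairs and threads and do not change that default, so a 0 in such a row says nothing about the snoRNA. Fragments from unspliced introns can be counted for these 5 hosts, and under that default fragments over the snoRNAs in their exons are lost from the host count. Of the 4 rows with counts, Snora73b in Snhg3 ranged from 4 to 79 counts per mouse with a median of 22.5, Snora73a in Snhg3 had a median of 7.0, Snord87 in Snhg6 a median of 4.0, and Gm25129 in Snhg11 a median of 0.0 and at most 7. With so few counts, no comparison between ages was made on these rows. The other Snhg3 snoRNA and the other Snhg11 snoRNA are shown because they are, with Snord87 and Snora73a, the only rows that held counts.
Snora73b in Snhg3, chr4:132352322-132352526, - strand: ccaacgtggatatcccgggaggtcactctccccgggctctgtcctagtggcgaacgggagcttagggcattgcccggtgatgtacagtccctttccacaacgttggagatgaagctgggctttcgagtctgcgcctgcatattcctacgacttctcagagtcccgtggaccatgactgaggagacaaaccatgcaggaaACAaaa
Gm25129 in Snhg11, chr2:158379534-158379666, + strand: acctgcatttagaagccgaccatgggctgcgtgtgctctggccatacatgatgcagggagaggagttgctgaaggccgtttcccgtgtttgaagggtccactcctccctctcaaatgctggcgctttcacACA

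**Figure D1:**
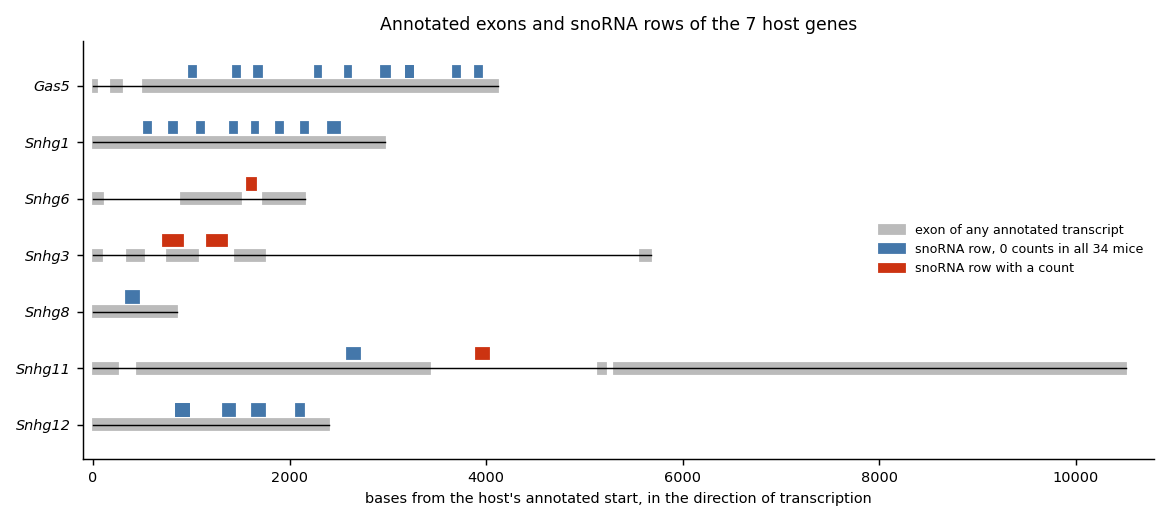
Map of the 7 host genes, with the distance in bases from the annotated start on the horizontal axis, grey boxes for exons of any annotated transcript, blue boxes for snoRNA rows at 0 counts in all 34 mice and red boxes for the 4 rows with counts. Each blue box lies over a grey exon, and each red box has bases that no grey exon covers.

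RefSeq start windows on GRCm38.p6 were found for 6 of the 7 hosts, with 2 windows for Gas5, and Snhg6 had no entry. The windows are shown because the 5′TOP feature is read from the first transcribed bases. Each one runs from 25 bases before the annotated start to the base 24 after it, and the unbroken run of C and T from the start is in capitals. The run was 5 bases or longer in Gas5 (its second window), Snhg8 and Snhg12, was 3 in Snhg1, and was 0 in Snhg3 and Snhg11. Of all 32851 windows in the table, 4.44% had a run of 5 or more, and of the 25 genes of the 5′TOP list with a window, 8 had one. An annotated start can be some bases off the start in use, so a short run does not show that the feature is absent.
Gas5 first window, chr1:161034576-161034625, + strand: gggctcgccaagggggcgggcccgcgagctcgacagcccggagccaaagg
Gas5 second window, chr1:161035141-161035190, + strand: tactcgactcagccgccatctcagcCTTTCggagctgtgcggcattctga
Snhg1, chr19:8723462-8723511, + strand: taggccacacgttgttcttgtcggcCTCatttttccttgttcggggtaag
Snhg3, chr4:132353662-132353711, - strand: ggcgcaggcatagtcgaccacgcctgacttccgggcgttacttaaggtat
Snhg8, chr3:123508312-123508361, - strand: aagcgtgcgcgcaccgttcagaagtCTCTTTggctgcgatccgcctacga
Snhg11, chr2:158375688-158375737, + strand: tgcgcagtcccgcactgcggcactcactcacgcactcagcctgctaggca
Snhg12, chr4:132308653-132308702, + strand: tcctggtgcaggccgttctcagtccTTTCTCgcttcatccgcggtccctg

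The total count on genes per mouse ran from 23316107 to 38965078 in the main set. Levels are given as CPM, the count relative to the size of the library, and a count of 3 corresponds to 0.0745 to 0.137 CPM. The 6 microglial markers averaged 10.03 log2 CPM at P6, 11.47 at P15 and 11.58 at 8 weeks, so that the labelled cell type was present at each age. Other cells were present too. The mean of 6 neuron markers ranged from 4.77 to 6.31 log2 CPM at P6, from 3.89 to 6.53 at P15 and from 2.82 to 4.93 at 8 weeks, and that of 9 neural progenitor markers averaged 5.92 at P6 and 1.62 at 8 weeks. Astrocyte markers averaged 6.58, 7.37 and 7.06 log2 CPM at P6, P15 and 8 weeks, oligodendrocyte lineage markers 4.86, 5.84 and 4.60, endothelial markers 3.798, 4.57 and 4.83, and monocyte and macrophage markers 4.75, 4.91 and 4.72. None of the markers in these lists was at 0 in any mouse. Markers of dividing cells averaged 6.30 log2 CPM at P6, 3.66 at P15 and 0.854 at 8 weeks. The part of these cells in the changes below was not tested, apart from the relation of each host to neuron markers within an age. In bulk RNA, fewer cells of a type and less RNA per cell cannot be told apart. P6 female 6 stood apart, with 7.53 log2 CPM of neuron markers and 8.60 of microglial markers. At P15, male 1 had the lowest microglial markers (10.9) and the highest oligodendrocyte lineage markers (7.31), and it was the lowest mouse of its age for 5 of the 7 hosts.

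The hosts moved in both directions with age. Levels are CPM scaled by the trimmed mean of M-values (TMM). A gene was called at a false discovery rate (FDR, p adjusted by Benjamini-Hochberg over all genes tested) below 0.05 in edgeR's quasi-likelihood test. From P6 to P15, Snhg11 and Snhg12 rose and Snhg1, Snhg3 and Snhg6 fell, against 30.4% of all genes called higher and 31.4% called lower. From P15 to 8 weeks, Snhg11 rose and Snhg3 and Snhg6 fell, against 24.0% of all genes higher and 23.9% lower. From P6 to 8 weeks, Snhg11 and Snhg12 rose and Snhg1, Snhg3 and Snhg6 fell, while Gas5 and Snhg8 were not called. Against 37.8% of all genes higher and 36.6% lower in that comparison, 5 of 7 is near the share of all genes that changed. The median log2 fold change of the 7 was 0.046 from P6 to 8 weeks, beside 0.038 over all genes tested. Of the 7, 6 are annotated as noncoding, and among the 1383 long noncoding genes tested 51.5% were higher and 18.7% lower from P6 to 8 weeks, with a median of 0.59. Scaling by library size alone moved the median over all genes by -0.14 from P6 to 8 weeks and by -0.13 from P6 to P15, and the calls of Snhg1, Snhg3, Snhg6 and Snhg12 held there. The 3 comparisons share mice, so the values of a host in one of them are not independent of those in the others.

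Tested against a 2-fold change, none of the 7 hosts passed from P6 to P15, where 4.87% of all genes passed higher and 4.85% lower, and none passed from P15 to 8 weeks, where 1.2% passed higher and 3.07% lower. From P6 to 8 weeks Snhg11 passed higher (FDR 0.00631 with edgeR's glmTreat) and Snhg6 lower (FDR 2.07e-05), beside 11.5% and 12.4% of all genes. With P6 female 6 added, or with limma-voom, Snhg6 alone passed. The ranges of 2 ages were separate for Snhg6 from P6 to P15, where 5.25% of all genes had separate ranges and were higher and 7.72% were lower. They were separate for Snhg12, higher, and Snhg3 and Snhg6, lower, from P6 to 8 weeks, beside 14.8% of all genes in each direction. No host had separate ranges between P15 and 8 weeks, where 1.65% of all genes did and were higher and 1.72% were lower.

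**Figure D2:**
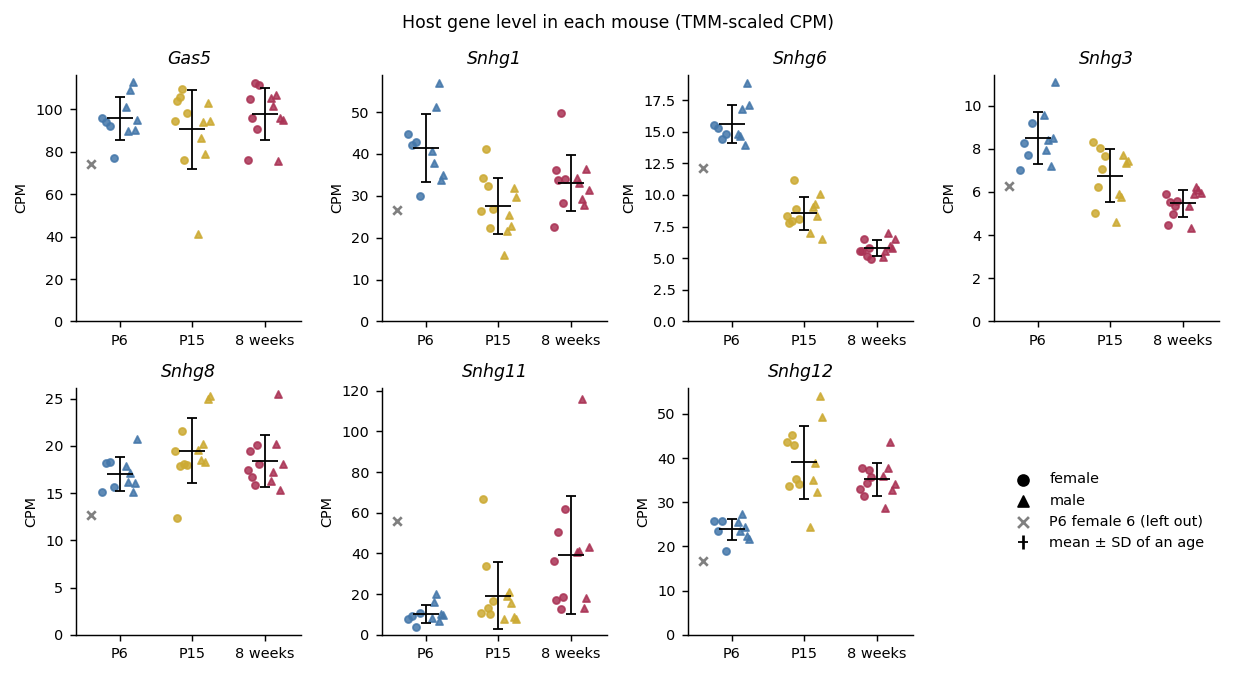
TMM-scaled CPM of each host in each mouse, by age, with females as circles, males as triangles, the mean ± SD of an age in black and P6 female 6 as a grey cross. Snhg6 stepped down at each age, Snhg12 was higher at P15 and 8 weeks than at P6, Snhg11 spread from 12.5 to 116 CPM at 8 weeks, and Gas5 stayed near its P6 level apart from 1 male at P15.

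**Figure D3:**
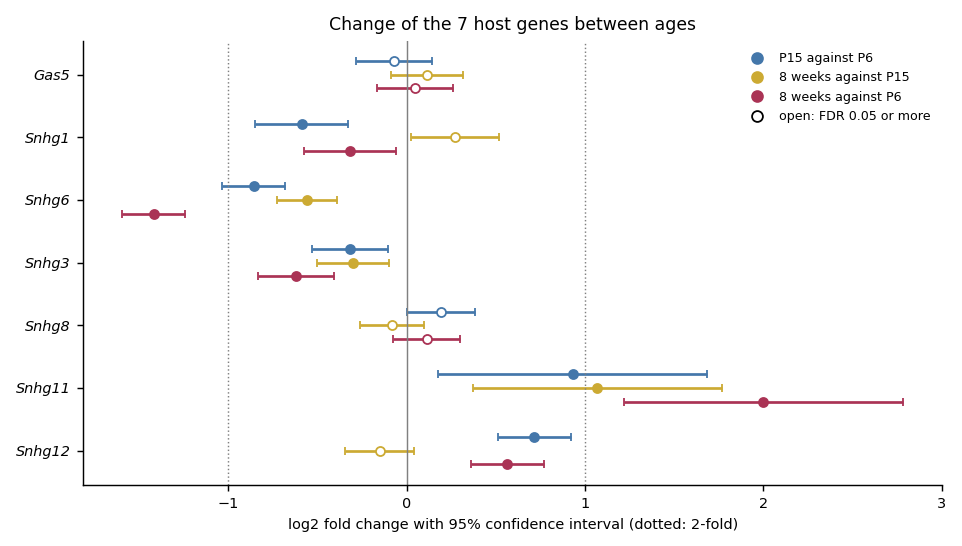
Log2 fold change of each host with its 95% confidence interval in the 3 age comparisons, with open points where the FDR was 0.05 or more and dotted lines at 2-fold. From P6 to 8 weeks the intervals of Snhg6 and Snhg11 lie wholly beyond the dotted lines, and each interval of Gas5 crosses 0.

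Gas5, whose introns carry the most snoRNAs of the 7, is annotated at chr1:161034422-161038539 on the + strand, with 25 transcripts of which 20 are retained-intron forms. Its level at P6 ran from 77.2 to 113 CPM with a median of 94.7, at P15 from 41.1 to 110 with a median of 94.4, and at 8 weeks from 75.9 to 113 with a median of 98.9. The ages overlap nearly in full, and the lowest value of all belonged to P15 male 1. The log2 fold change from P6 to 8 weeks was 0.05 ± 0.10 (SE; 95% confidence interval -0.17 to 0.26, FDR 0.70 by edgeR), and from P6 to P15 it was -0.07 ± 0.10 (interval -0.28 to 0.14, FDR 0.58). The sign of the first value turned with scaling by library size alone (-0.09) and without P6 female 5 (-0.03). Across the 3 intervals, the largest change that they allow in either direction was 0.32 on the log2 scale, from P15 to 8 weeks. The start of Zbtb37, a neighbour on the opposite strand, overlaps the span of Gas5 by 428 bases and none of its exon bases.

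Snhg1, the host of 8 of the annotated snoRNAs, is at chr19:8723475-8726443 on the + strand. It ranged from 30.0 to 56.9 CPM at P6 with a median of 41.5, from 15.97 to 41.2 at P15 with a median of 26.6, and from 22.7 to 49.8 at 8 weeks with a median of 33.4. All 12 mice at P15 were below the P6 median, and 8 of them were below every P6 mouse. The fall from P6 to P15 was -0.59 ± 0.13 on the log2 scale (FDR 1.86e-04 by edgeR). The value from P15 to 8 weeks was 0.27 ± 0.12, with an FDR of 0.064, and that from P6 to 8 weeks was -0.32 ± 0.13, with an FDR of 0.025. The last call was lost with P6 female 6 included (FDR 0.052) and without P6 female 1 (FDR 0.053).

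Snhg6, the host of Snord87, is at chr1:9941959-9944118 on the - strand, and showed the clearest fall of the 7. Its level was 13.98 to 18.8 CPM at P6 with a median of 15.1, 6.51 to 11.2 at P15 with a median of 8.34, and 4.97 to 7.02 at 8 weeks with a median of 5.70. No P15 mouse reached the lowest P6 mouse, and 10 of the 12 mice at 8 weeks were below every P15 mouse. The log2 fold change was -0.86 ± 0.09 from P6 to P15 (FDR 3.74e-10 by edgeR), -0.56 ± 0.08 from P15 to 8 weeks (FDR 2.15e-06) and -1.42 ± 0.09 from P6 to 8 weeks (FDR 1.29e-15), the last a 2.67-fold fall. It was called in each of the 3 comparisons under all 17 alternatives. The counts of Snord87, inside an intron of Snhg6, had a median of 8.0 at P6 and of 3.0 at both later ages, which is too few to compare. Snhg6 shares 127 exon bases with Mcmdc2 on the opposite strand, a gene below the filter with a highest median of 11 counts over the ages.

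Snhg3, the host of the Snora73 pair, is at chr4:132348014-132353686 on the - strand. At P6 it was 6.999 to 11.1 CPM with a median of 8.35, at P15 4.59 to 8.33 with a median of 7.20, and at 8 weeks 4.33 to 6.23 with a median of 5.56. Each mouse at 8 weeks was below each mouse at P6, while P15 overlapped both. The log2 fold change was -0.32 ± 0.10 from P6 to P15 (FDR 0.0094 by edgeR), -0.30 ± 0.10 from P15 to 8 weeks (FDR 0.014) and -0.62 ± 0.10 from P6 to 8 weeks (FDR 3.89e-06). All 3 calls held under all 17 alternatives. Snhg3 lies at the start of Rcc1, which encodes the nucleotide exchange factor of Ran, on the same strand, and the 2 genes share 135 exon bases. Rcc1 averaged 52.3 ± 4.14 CPM at P6, 25.6 ± 2.94 at P15 and 15.3 ± 2.01 at 8 weeks (SD; n = 10, 12 and 12), a log2 fold change of -1.78 from P6 to 8 weeks. Fragments over the shared bases are left out of both genes under the default named above.

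Snhg8, the host of Snora24, is at chr3:123507552-123508404 on the - strand. Its level was 15.1 to 20.7 CPM at P6 with a median of 16.7, 12.4 to 25.3 at P15 with a median of 19.0, and 15.3 to 25.5 at 8 weeks with a median of 17.8. The 3 ages overlap, and 3 of the 12 mice at P15 were above every P6 mouse. No change was called, with a log2 fold change of 0.19 ± 0.09 from P6 to P15 (FDR 0.071 by edgeR) and of 0.11 ± 0.09 from P6 to 8 weeks (interval -0.08 to 0.30, FDR 0.28). The first was called with P6 female 6 included (FDR 0.031) and without P15 female 2 (FDR 0.029), and the sign of the second turned with scaling by library size alone (-0.03).

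Snhg11, listed as protein_coding in the annotation, is at chr2:158375638-158386145 on the + strand, and it rose the most and varied the most of the 7. Its level was 3.84 to 19.9 CPM at P6 with a median of 9.38, 7.60 to 66.9 at P15 with a median of 14.4, and 12.5 to 116 at 8 weeks with a median of 38.4. The coefficient of variation among mice was 44.8% at P6, 86.6% at P15 and 74.4% at 8 weeks, while for the other 6 hosts it lay between 9.62% and 24.5% at each age. All 12 mice at 8 weeks were above the P6 median and 7 were above every P6 mouse. The log2 fold change was 2.0 ± 0.39 from P6 to 8 weeks (interval 1.22 to 2.78, FDR 2.67e-05 by edgeR), a 4.0-fold rise. It was 0.93 ± 0.37 from P6 to P15 (FDR 0.030) and 1.07 ± 0.34 from P15 to 8 weeks (FDR 0.011). P6 female 6 had 55.8 CPM when scaled with all 35 mice, where the other P6 mice had at most 19.98. With it included the log2 fold change fell to 1.41 from P6 to 8 weeks (FDR 0.0027) and to 0.35 from P6 to P15 (FDR 0.47). The call from P6 to P15 was also lost without P6 female 3 (log2 fold change 0.79, FDR 0.081) and without P15 female 2 (0.62, FDR 0.12), and under 3 of the other alternatives.

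Snhg12, which hosts both kinds of snoRNA, is at chr4:132308623-132311024 on the + strand. It was 19.0 to 27.3 CPM at P6 with a median of 23.9, 24.4 to 54.0 at P15 with a median of 37.1, and 28.6 to 43.5 at 8 weeks with a median of 35.1. All mice at 8 weeks were above all mice at P6, and so were 11 of the 12 at P15, the exception being P15 male 1. The log2 fold change was 0.72 ± 0.10 from P6 to P15 (FDR 3.66e-07 by edgeR) and 0.56 ± 0.10 from P6 to 8 weeks (FDR 9.40e-06). The value of -0.15 ± 0.09 from P15 to 8 weeks was not called (FDR 0.18), but it was without P15 male 1 (-0.23, FDR 0.032).

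Per kb of annotated exon, Gas5 was highest and Snhg11 lowest of the 7 at each age. Gas5 was at 25.5 ± 2.71 CPM per kb at P6 (SD, n = 10) and 26.0 ± 3.23 at 8 weeks (n = 12), and Snhg8 came next with 19.97 ± 2.07 and 21.5 ± 3.22. Snhg12 stood at the fifth place at P6, at 9.93 ± 1.01 CPM per kb, and at the third place at P15 and 8 weeks, at 16.3 ± 3.43 and 14.6 ± 1.58. Snhg6 stood at the fourth place at P6 with 13.6 ± 1.31 and at the sixth at 8 weeks with 5.07 ± 0.54. Snhg11 was at 1.20 ± 0.54 CPM per kb at P6 and 4.58 ± 3.41 at 8 weeks. Neighbours in this order mostly overlapped, with Gas5 above Snhg8 in 7 of 12 mice at P15 and Snhg1 above Snhg6 in 6 of 10 mice at P6. Separate ranges were seen at P6 between Snhg6 and Snhg12 and between Snhg3 and Snhg11, and at 8 weeks between Snhg1 and Snhg3. With the length of the longest transcript in place of all exon bases, 4 of the 7 kept their place at P6, 3 at P15 and 7 at 8 weeks.

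No host was called between males and females. The 21 tests, 7 at each age, gave 0 calls with edgeR, with a lowest FDR of 0.29 and 0 of 21 at an unadjusted p under 0.05, beside calls among all genes of 0.0511% at P6, 0.0681% at P15 and 0.114% for the adult mice. DESeq2 and limma-voom gave 0 calls too, with 1 unadjusted p under 0.05 each. The log2 differences, males against females, ran from -0.92 ± 0.49 for Snhg11 at P15 to 0.61 ± 0.55 for Snhg11 at P6, so that a difference of that size in Snhg11 could not be shown at this spread. No difference between the sexes in the change with age was called by a test of the interaction, with 0 of 7 hosts and 0.0% of all genes called from P6 to 8 weeks, 0.0% from P6 to P15 and 0.0% from P15 to 8 weeks. The lowest unadjusted p was 0.047, for Snhg11 from P6 to P15, and edgeR and DESeq2 gave 1 and 2 unadjusted values under 0.05.

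Snhg11 varied with the neuron markers at 8 weeks. Over the 12 mice of that age, Pearson's r between log2 CPM of Snhg11 and the mean of the neuron markers was 0.86 (permutation p = 0.00036, adjusted p = 0.0076 over 21 relations) and Spearman's rho was 0.81 (permutation p = 0.0023, adjusted p = 0.049). Without the 2 mice farthest from the median of the markers r was 0.77. The mouse with the most Snhg11 at 8 weeks, male 3, and the mouse with the least, female 4, were also first and last for the neuron markers. At P15 r was 0.61 and rho 0.50 (adjusted permutation p = 0.15 and 0.41), with female 2 first for both and male 1 second for the markers and last for Snhg11. At P6 r was 0.20 and rho 0.48 (adjusted permutation p = 0.76 and 0.58). Between ages the measures went apart, since the neuron markers averaged 5.77 log2 CPM at P6 and 3.95 at 8 weeks while Snhg11 rose. The markers are Syt1, Nefl, Snap25, Stmn2, Rbfox3 and Tubb3. Only their mean was compared between ages, and the part of neurons in the rise of Snhg11 was not tested. These relations were computed after the values had been seen, and each pair of values comes from 1 library.

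**Figure D4:**
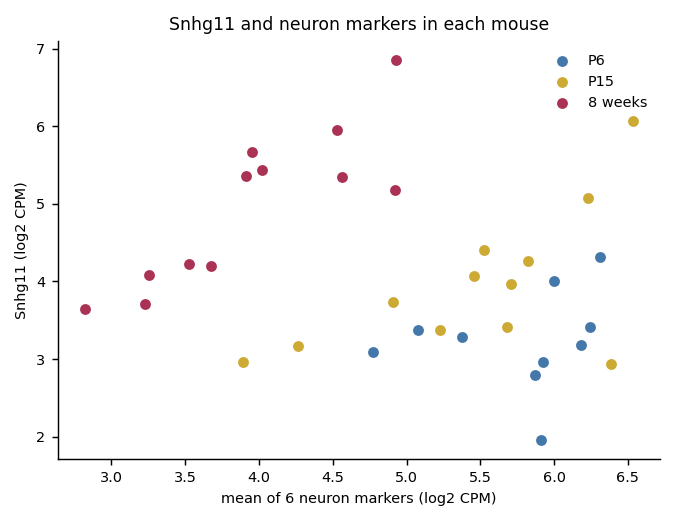
Snhg11 against the mean of 6 neuron markers, both in log2 CPM, with 1 point per mouse coloured by age. The mice of 8 weeks rise from lower left to upper right (r = 0.86) at lower marker levels than the P6 mice, and P15 female 2 is the highest P15 mouse on both axes.

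Of the other 18 relations with neuron markers, that of Snhg8 at P15 had an adjusted permutation p of 0.0076 for r, which was -0.82, and of 0.21 for rho, which was -0.66. Without the 2 farthest mice r was -0.63. No other adjusted p for r was under 0.05. Leaving out the 2 farthest mice moved r at P15 from -0.19 to -0.81 for Snhg6 (permutation p = 0.0029 without them, not adjusted) and from -0.63 to -0.75 for Snhg3 (permutation p = 0.014, not adjusted).

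Gas5 and Snhg1 varied together among mice of the same age. Their log2 CPM gave r = 0.89 and rho = 0.79 over 10 mice at P6 (permutation p = 0.00089 and 0.0084), r = 0.86 and rho = 0.95 over 12 mice at P15 (permutation p = 1e-05, the smallest that the permutations can give, and 2e-05) and r = 0.75 and rho = 0.71 over 12 mice at 8 weeks (permutation p = 0.0028 and 0.012). Without the 2 mice farthest from the Gas5 median, r was 0.72, 0.85 and 0.55. Over the 63 relations, 21 pairs at 3 ages, the adjusted permutation p for r was 0.028, 0.00063 and 0.044 at the 3 ages, and for rho 0.15, 0.0013 and 0.15. The adjusted p for r was under 0.05 in 7 relations in all, and for r and rho both in 1, that of Gas5 and Snhg1 at P15. Both hosts were lowest in P6 female 5 at P6 and in P15 male 1 at P15, while at 8 weeks Gas5 was lowest in male 4 and Snhg1 in female 1. Both carry box C/D snoRNAs on different chromosomes. How many other genes varied as closely with either host within an age was not computed.

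The genes whose pattern over the 34 mice was most like that of a host were found by the root mean square (RMS) difference of log2 CPM after each gene was centred on its own mean. For Gas5 they were Riok1 (0.11), Uhrf2 (0.12) and Armc8 (0.13). Ubap2 (0.17), H3f3a (0.17) and Fundc2 (0.18) were nearest to Snhg6, and Zc3h10 (0.15), Trit1 (0.16) and Csnk1e (0.17) to Snhg12. Nup54, Ralgapa2 and Srsf3 (each 0.17) were nearest to Snhg1, Cox16 (0.18), Tomm20 and Eif4b (each 0.19) to Snhg3, and Cnppd1, Cstf1 and Arfgap2 (each 0.13) to Snhg8. Snhg11 had no gene as near, the closest being 9330162G02Rik (0.46), A230103L15Rik (0.47) and Ano3 (0.58). No host was among the 3 nearest genes of another host. By this measure Snhg1 stood at place 1235 among all genes for Gas5, and Gas5 at place 272 for Snhg1.

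The other genes of the snoRNA pathway mostly fell from P6 to 8 weeks. Of 11 further host genes, 10 were tested and Snhg9 was not, with 2 higher, 7 lower and a median log2 fold change of -0.47, where the median over all genes was 0.04. Snhg20 (0.90 ± 0.11) and Snhg15 (0.72 ± 0.16) rose, and Snhg14 (-0.85 ± 0.33), Snhg10 (-0.76 ± 0.27) and Snhg5 (-0.55 ± 0.14) fell. Snhg18 was at 0.08 ± 0.29 and was not called. Among 20 protein-coding hosts of snoRNAs, 15 fell and 2 rose, with a median of -0.71. Rcc1 (-1.78 ± 0.07), the ribosomal protein gene Rpsa (-1.45 ± 0.12) and Rack1 (-1.12 ± 0.12) fell most, while Eif4a2, a translation initiation helicase, rose by 1.06 ± 0.15, Ap1g1 by 0.33 ± 0.09, and Hspa8 was at 0.23 ± 0.11 and was not called.

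The mRNAs of proteins that bind or assemble snoRNAs fell in 17 of 18 cases from P6 to 8 weeks, with a median log2 fold change of -0.60 and Znhit3 (-0.20 ± 0.13) not called. The H/ACA core protein gene Nhp2 fell by 1.32 ± 0.11, the C/D core protein gene Nop58 by 1.17 ± 0.13 and the H/ACA assembly factor gene Shq1 by 0.98 ± 0.11. At the other end, Naf1 (-0.22 ± 0.09) and Nop56 (-0.31 ± 0.07) fell less. All 18 were lower at P15 than at P6, with a median of -0.65, where 31.4% of all genes were lower. From P15 to 8 weeks 6 were higher and 2 lower, with a median of 0.003, where 24.0% of all genes were higher and 23.9% lower. The 5′TOP list of 37 ribosomal protein and translation genes had 36 genes lower from P6 to 8 weeks and a median of -0.84. Rps2 (-1.44 ± 0.12), Rps19 (-1.34 ± 0.12) and the nucleolar chaperone gene Npm1 (-1.30 ± 0.15) fell most, Tpt1 (-0.55 ± 0.11) and Rplp2 (-0.55 ± 0.13) fell least, and Rplp1 (-0.22 ± 0.14) was not called. In this list 28 of the 37 were lower from P6 to P15, beside 31.4% of all genes, and 35 were lower from P15 to 8 weeks, beside 23.9%.

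The factors of nonsense-mediated decay went both ways, with 5 of 15 higher, 6 lower and a median of 0.04 from P6 to 8 weeks. That is near the values over all genes tested, of which 37.8% were higher and 36.6% lower, with a median of 0.04. Among the lower ones were the exon junction complex genes Magoh (-0.90 ± 0.07) and Rbm8a (-0.77 ± 0.06) and the factor Upf3a (-0.75 ± 0.05), and among the higher ones were the kinase gene Smg1 (0.82 ± 0.22) and Smg9 (0.36 ± 0.08), while Upf3b was at 0.40 ± 0.18 and was not called. Set against these lists, Snhg6 lies near the bottom of the 5′TOP range, Snhg3 and Snhg1 lie within it, and Gas5, Snhg8, Snhg12 and Snhg11 lie above its highest value of -0.22. Some of the genes stand in more than 1 list, 4 of the 5′TOP list, 5 of the protein-coding hosts and 1 of the genes of snoRNA-binding proteins. The share of these lists called lower can be read against the 36.6% of all genes that were, and no test of a list against other genes was run.

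**Figure D5:**
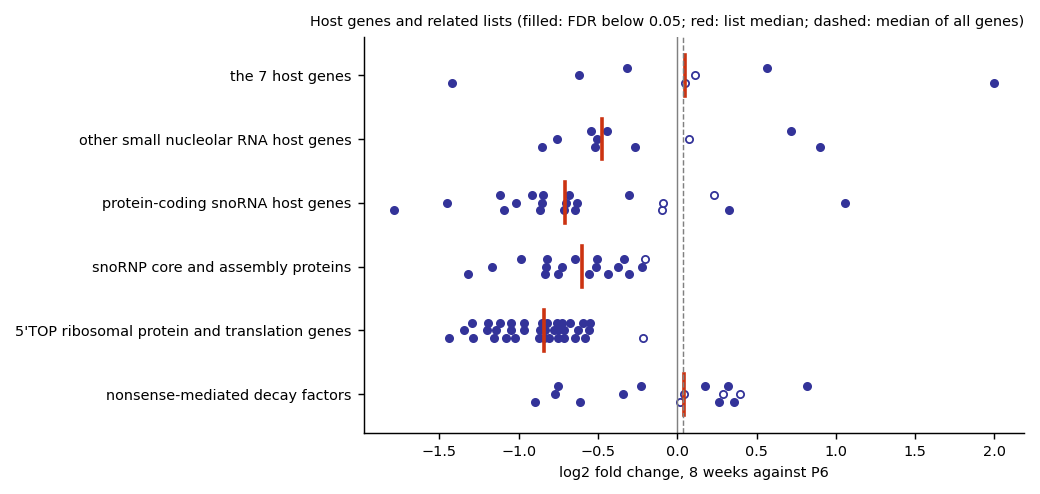
Log2 fold change from P6 to 8 weeks of each tested gene, with 1 row for the 7 hosts and for each related list, filled points where the FDR was below 0.05, the list median in red and the median of all genes dashed. The 7 hosts spread from -1.42 to 2.0, whereas the 5′TOP list lies wholly below 0.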

How the data were processed

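The authors deposited raw counts of fragments per gene for 35 mice. By the paper's methods, paired-end reads of stranded libraries were mapped with STAR on GRCm38/mm10, and featureCounts gave the strand-specific counts. The annotation release is not given in the sources used here. Names, lengths and positions come from GENCODE M21, in which 55141 of 55401 identifiers had a name, and start windows from RefSeq (GRCm38.p6). The miRNA libraries were not analysed here.

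The filter kept genes at 0.5 CPM or more in 5 mice or more, and TMM scaled the libraries. Counts of 34 mice were fitted in R 4.3.3 with edgeR 4.0.16 (glmQLFit, robust), with 1 mean for each age and sex group. Age contrasts average both sexes. A call needs an FDR below 0.05 over all 17612 genes, and the 2-fold test is glmTreat. Log2 CPM has a prior count of 2. Alternatives were all 35 mice, library size or DESeq2 size factors, no filter, at least 10 counts in every mouse, limma-voom (limma 3.58.1), DESeq2 1.42.0, age without sex, only the 2 ages compared, a replicate block, and the P6 females left out 1 by 1. Leaving out P15 male 1, P15 female 2 and 8-week male 3, and all correlations (100000 permutations, scipy 1.17.1, two-sided), were chosen after the values were seen. The hosts and lists were chosen with earlier results of these data known. The fit was also run on counts simulated from its own estimates of spread, with a small share of genes changed. In these data most genes were called from P6 to 8 weeks. The run therefore does not show how well the fit does here. No pair of mice within a group was a copy (lowest chi-square per gene 12.8). Litter and batch are not labelled. The p-values measure the spread between mice of a group, and a litter or batch shared within an age cannot be told apart from age. The confidence intervals of log2 fold changes come from the same fit and include the spread between mice. Named genes are the 7 hosts, up to 3 highest and 3 lowest of each list from P6 to 8 weeks and any other tested host. Overlapping neighbours, the 3 genes most like each host and the neuron markers are named too.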

Additional observations from a re-analysis of the deposited data

Results flagged for a closer look

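Of 42 groups, 7 hosts in 6 groups of age and sex, 5 held a mouse that lay far from the others of its group on the log2 scale, where chance gives about 1 in 20. The value is the gap to the next mouse as a share of the group's range. For Gas5, P15 male 1 was lowest at 41.1 CPM, with the next male at 79.1 (0.714), and 8-week male 4 was lowest at 75.9 CPM, with the next at 95.1 (0.658). For Snhg1, P6 female 5 was lowest of 4 females at 30.0 CPM, with the next at 42.1 (0.852). For Snhg6, P15 female 4 was highest at 11.2 CPM, with the next at 8.86 (0.654). For Snhg8, P15 female 2 was lowest at 12.4 CPM, with the next at 17.8 (0.652), and this mouse had the highest neuron, neural progenitor and astrocyte markers at P15. The part of these markers was not tested.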

How the results depend on the processing

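The number of hosts called stayed between 4 and 5 from P6 to P15, between 3 and 4 from P15 to 8 weeks and between 4 and 5 from P6 to 8 weeks over 17 alternatives, and at 0 between the sexes and for the interaction. The 2 hosts past 2-fold from P6 to 8 weeks became 1 with all 35 mice and 1 with limma-voom, where Snhg11 was lost (FDR 0.19 and 0.13). The place in the order per kb was kept by 4 hosts at P6 and 3 at P15 with the longest transcript. The sign turned for Gas5 from P6 to 8 weeks with library size alone (-0.0944) and without P6 female 5 (-0.0271; with 1 mouse left out the values ran from -0.0271 to 0.0606), and for Snhg8 with library size alone (-0.0345). The cause was not tested. The call of Snhg11 from P6 to P15 was lost with all 35 mice (0.35), library size alone (0.84), no filter (0.93), limma-voom (0.81), and without P6 female 3 (0.79) or P15 female 2 (0.62). Each P6 female left out in turn gave 4 to 5 hosts from P6 to P15 and 4 to 5 from P6 to 8 weeks. The list counts stayed within 1.5 times of their values. Mouse numbers were not taken to pair the animals. Of 80 same-numbered pairs, 27 had a correlation of deviations over 0.1 (median 0.033). Pairs with different numbers were not compared, so these values cannot show whether the numbers pair animals. The replicate block gave 5, 3 and 5 hosts called in the 3 comparisons, as without it. The number of mice limits the precision for Gas5 and Snhg8, and their intervals do not show that they did not change.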
